A study of Sus scrofa with 2 samples.

Results

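Cytosolic ribosomal proteins are the protein part of the ribosome, the particle that translates mRNA. Most core proteins are built into each particle in a single copy, so that the cell needs them in similar amounts. Some have paralogs, related genes whose products can stand in for a core protein or act elsewhere in the cell. In skeletal muscle, ribosomes make the contractile proteins of the growing fibre. The genes described here are 6 core proteins of the large subunit (RPL3, RPL6, RPL7, RPL13, RPL14 and RPLP0) and 2 paralogs (RPL7L1 and RPL22L1). They were chosen by name. A unigene (an assembled transcript of the deposited table) was assigned to a gene where its protein match carried a RefSeq accession of that pig gene. All 8 genes were found, among 4484 genes that could be named in this way.

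Longissimus dorsi muscle (LM) was taken from Shaziling, an indigenous Chinese breed, and from Yorkshire, a lean commercial breed. From each breed came 3 male full sibs, 25 days old and with no treatment given in the labels. Reads and RPKM (reads per kb of unigene, scaled to the total reads of the library) were deposited in 1 column each per breed, and every column name lists 3 animals. Whether RNA was pooled or reads were merged is not stated in the sources used here, so each breed is represented by 1 library. No spread between pigs could be computed, no difference below has a replicate check, and breed cannot be told apart from litter. Breeds were read from the sample titles and column names, which go together, while a further label field pairs the classes the other way round (indigenous with Yorkshire, lean with Shaziling).

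RPKM values rest on totals of 33949238 reads for Yorkshire and 28305925 for Shaziling. Of these, a pair of mitochondrial unigenes took 46.4% in Yorkshire and 11.8% in Shaziling, and the ratio of every other gene therefore depends on the scaling. Over the 2363 unigenes at RPKM 10 or above in each library, the median log2 ratio (Shaziling over Yorkshire) was 0.35 as deposited. With totals that omit these mitochondrial unigenes it was -0.36. The tissue was checked by muscle fibre markers, of which 4 of 20 could be named (ATP2A1, DES, MYBPC2 and MYLPF). They ranged from RPKM 325 to 829 in Yorkshire and from 1518 to 2075 in Shaziling.

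Each of the 8 genes was matched by 1 unigene. Unigene length ran from 592 bp (RPL22L1) to 1437 bp (RPL7L1), and each exceeded the coding length of its matched protein. The surplus was smallest for RPL6 (37 bp), RPL7 (85 bp) and RPL3 (87 bp), and largest for RPL14 (757 bp), RPL7L1 (693 bp) and RPL13 (565 bp). Mammalian ribosomal protein genes have many processed pseudogenes, and reads of near-identical copies cannot be separated in such a table. Unigenes matched to a protein of another species were not named here, so more fragments of these transcripts may stand elsewhere in the table.

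RPLP0 forms the base of the ribosomal stalk, the arm that recruits elongation factors. The Yorkshire library held 5386 reads of contig_2801, its unigene, at RPKM 144. The Shaziling library held 27648, at RPKM 885.5. Shaziling was thus 6.16 times Yorkshire (95% CI, 5.98 to 6.34), the highest ratio of the 8 genes. By level, RPLP0 ranked 43 among the 4484 named genes in Yorkshire and 11 in Shaziling. Each CI (confidence interval) here is an exact one for read counts. It covers counting error only, and neither PCR copies nor differences between pigs.

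RPL3 lies close to the site of peptide bond formation. For contig_8811, 766 reads were counted in Yorkshire (RPKM 17.4) and 3131 in Shaziling (RPKM 85.2), which is 4.90 times as high (95% CI, 4.53 to 5.31). RPL13 is also a protein of the large subunit. For contig_2598, 964 reads were counted in Yorkshire (RPKM 23.6) and 3756 in Shaziling (RPKM 110.5), 4.67 times as high (95% CI, 4.35 to 5.02). The intervals of RPL3 and RPL13 overlap, and both end below that of RPLP0.

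RPL7, RPL6 and RPL14 were the most abundant of the 8 genes in Yorkshire, and they had the lowest ratios among the core genes. RPL7 (contig_685) rested on 10305 Yorkshire reads (RPKM 362) and 15704 Shaziling reads (RPKM 662). Its Shaziling level was 1.83 times that of Yorkshire (95% CI, 1.78 to 1.87). RPL6 (contig_727) rested on 9117 Yorkshire reads (RPKM 301) and 12563 Shaziling reads (RPKM 498), 1.65 times as high (95% CI, 1.61 to 1.70). Both genes are proteins of the large subunit, as is RPL14. RPL14 (contig_1190) rested on 7793 Yorkshire reads (RPKM 164) and 8598 Shaziling reads (RPKM 217). At 1.32 times (95% CI, 1.28 to 1.365), its difference was the smallest of the 8 genes.

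The paralogs had the lowest levels of the 8 genes in both libraries. RPL7L1 is related in sequence to RPL7, and its yeast relative is an assembly factor of the large subunit. Contig_9491 received 410 Yorkshire reads (RPKM 8.40) and 606 Shaziling reads (RPKM 14.9), 1.77 times as high (95% CI, 1.56 to 2.01). RPL22L1 is the paralog of RPL22, a core protein that was not among the named genes. Contig_12311 received 218 Yorkshire reads (RPKM 10.85) and 312 Shaziling reads (RPKM 18.6), 1.72 times as high (95% CI, 1.44 to 2.05). As deposited both intervals reach just above 2, while with the 5 other scalings described below they end at 1.605 or lower.

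**Figure D1:**
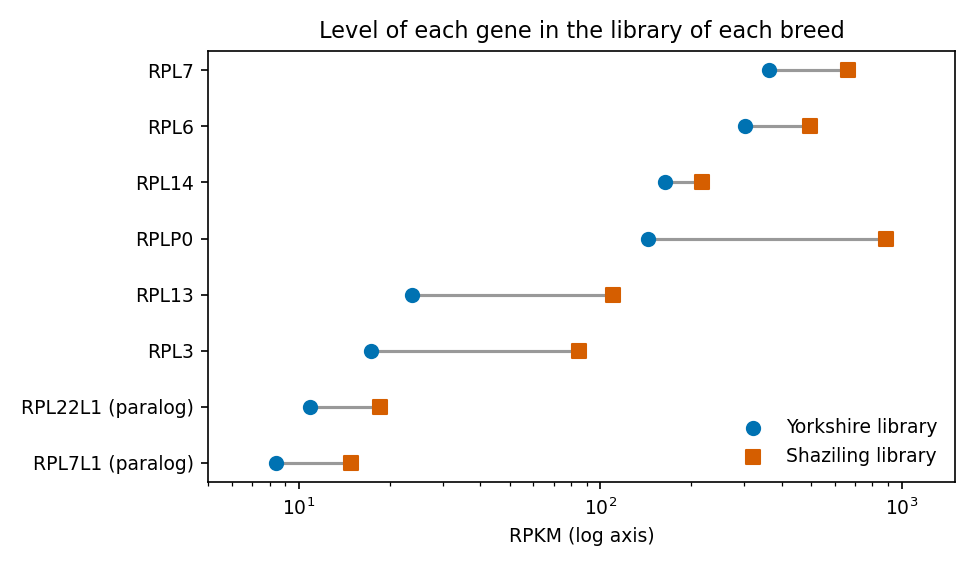
RPKM of each gene on a log axis, with circles for the Yorkshire library and squares for the Shaziling library, 1 library each. All 8 genes were higher in Shaziling as deposited, and RPLP0 moved from below RPL14 (144 against 164) to above RPL7 (885.5 against 662).

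A gene was called with the study's thresholds, an RPKM ratio of at least 2 and a false discovery rate of 0.05, by a binomial exact test of its reads adjusted over the 65535 unigenes. The test compares these libraries and not the breeds. The study used DEGseq instead and reported far fewer unigenes at these thresholds, so the calls here are not the study's. RPLP0, RPL3 and RPL13 were called higher in Shaziling, and 0 of the 8 genes were called higher in Yorkshire. The other 5 genes did not reach the ratio of 2, whereas their adjusted p was under the threshold (at most 8.26e-09, for RPL22L1, exact test). Over all unigenes, 24.1% were called higher in Shaziling and 7.08% higher in Yorkshire. Each of the 8 genes was above RPKM 10 in its higher library. Of the 1069 named genes at or above that level, 35.2% were called higher in Shaziling and 3.27% higher in Yorkshire. Over all 4484 named genes, the set from which the lists below come, the shares were 35.3% and 3.17%. The count of 3 of 8 is near this share, so as deposited the group did not stand apart from other genes of such levels.

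The place of a gene in the order of these 1069 ratios does not depend on the scaling. RPLP0 was above 96.2% of them, RPL3 above 93.4% and RPL13 above 92.2%. RPL7, RPL7L1, RPL22L1 and RPL6 were near the middle of the order, above 60.6%, 59.2%, 57.3% and 54.7%. RPL14 was above 41.3%, under the median gene.

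**Figure D2:**
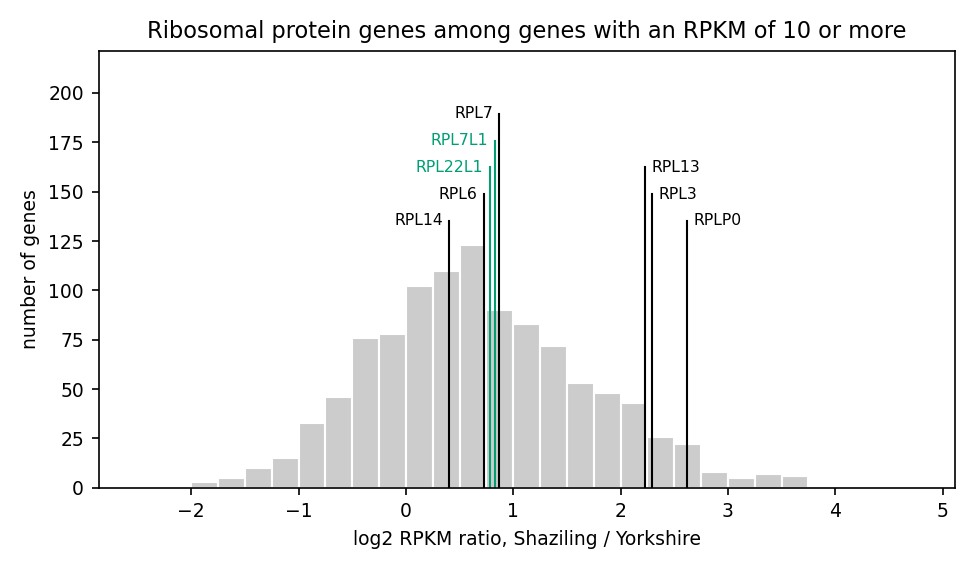
Histogram of the log2 RPKM ratio (Shaziling over Yorkshire) of the 1069 named genes at RPKM 10 or above in the higher library, with a vertical line for each ribosomal protein gene (black for core genes, green for paralogs). RPL14, RPL6, both paralogs and RPL7 stand at 0.40 to 0.87, on either side of the median of 0.62, and RPL13, RPL3 and RPLP0 at 2.22 to 2.62.

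The libraries were also put on a common scale in 5 other ways. RPLP0 then had a ratio from 3.74 to 4.82, RPL3 from 2.98 to 3.84 and RPL13 from 2.84 to 3.66, and each of the 5 scalings called these 3 genes and no other of the 8. RPL7, RPL7L1, RPL22L1 and RPL6 remained above 1 with each, but were at 1.11, 1.08, 1.04 and 1.005 with totals that omit the mitochondrial unigenes. With those totals the 95% CI included 1 for RPL7L1 (0.949 to 1.22), RPL22L1 (0.875 to 1.25) and RPL6. RPL14 was above 1 as deposited and when the median log2 ratio was set to 0 (1.04). It was below 1 with the other 4 scalings, down to 0.804 without the mitochondrial unigenes (95% CI, 0.780 to 0.829). Only with those totals did its interval lie below 1, and with the rest of these 4 it included 1. The background moved as well. Without the mitochondrial unigenes, 16.7% of the 1069 genes were called higher in Shaziling. Calls toward Shaziling then made up 49.4% of their calls, against 91.5% as deposited, and 38.3% of the calls over all unigenes, against 77.3%.

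**Figure D3:**
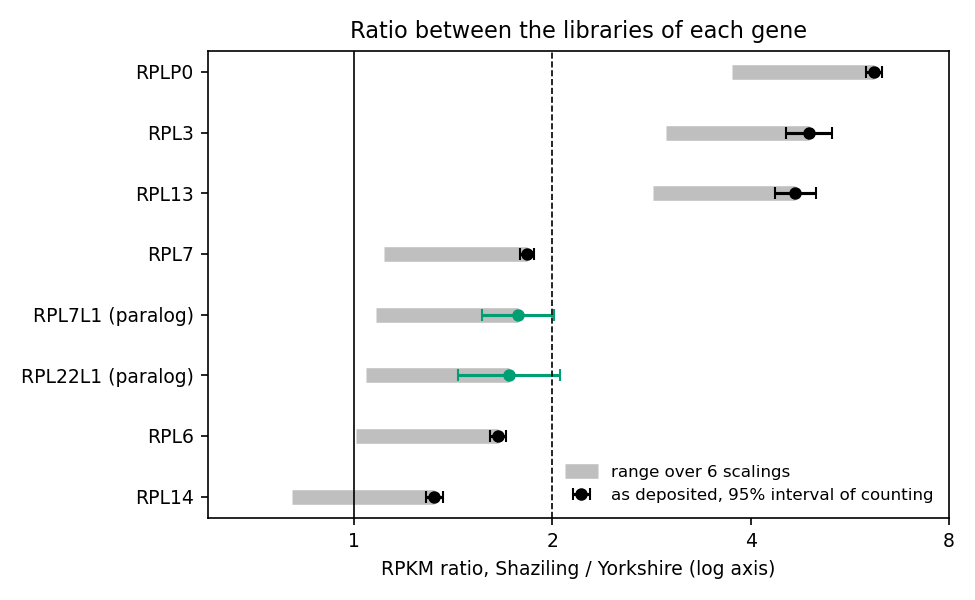
RPKM ratio, Shaziling over Yorkshire, on a log axis. Points are the deposited values with exact 95% intervals on the reads (black for core genes, green for paralogs), grey bars span 6 scalings of the libraries, and lines mark ratios of 1 and 2. The bars of RPLP0, RPL3 and RPL13 lie at 2.84 and above, and that of RPL14 crosses 1.

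Core proteins enter the ribosome in fixed proportions, so the balance between their mRNAs was compared within each library, per length. Summed over the 6 core genes, the level was RPKM 1012.2 in Yorkshire and 2457.9 in Shaziling, 2.43 times as high. RPL7 made up the largest part of the sum in Yorkshire (35.8%, against 26.9% in Shaziling). RPLP0 made up the largest part in Shaziling (36.0%, against 14.2% in Yorkshire). RPL6 accounted for 29.7% in Yorkshire and 20.2% in Shaziling, and RPL14 for 16.2% and 8.83%. RPL13 and RPL3 were small parts of both sums, with 2.34% and 1.72% in Yorkshire and 4.50% and 3.46% in Shaziling. The most abundant core gene stood 20.9 times above the least abundant in Yorkshire (RPL7 over RPL3) and 10.4 times in Shaziling (RPLP0 over RPL3).

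The ratio of one gene divided by that of another is free of library scaling, and it was tested on the reads with Fisher's exact test. Only a factor common to all genes cancels in this way, and library effects that differ between genes were not tested. Like the intervals, the p-values of these pairs cover counting error in the 2 libraries only. The 15 pairs of core genes were added after their values were seen, and 14 of them differed at an adjusted p of 0.05. The exception was RPL13 against RPL3, at 0.953 (95% CI, 0.856 to 1.061, adjusted p = 0.387, Fisher's exact test). RPL7 stood at 0.297 times RPLP0 (95% CI, 0.286 to 0.308). RPL6 and RPL7, the closest of the other pairs, also differed, with RPL6 at 0.904 times RPL7 (95% CI, 0.871 to 0.938).

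The paralogs were set against the core genes in 12 pairs, of which 8 differed at an adjusted p of 0.05. Both paralogs had lower ratios than RPLP0, RPL3 and RPL13. RPL7L1 stood at 0.288 times RPLP0 (95% CI, 0.253 to 0.328), 0.362 times RPL3 and 0.379 times RPL13. RPL22L1 stood at 0.279 times RPLP0 (95% CI, 0.233 to 0.334), 0.350 times RPL3 and 0.367 times RPL13. Both had higher ratios than RPL14, with RPL7L1 at 1.34 times (95% CI, 1.18 to 1.53) and RPL22L1 at 1.30 times (95% CI, 1.08 to 1.55). The paralogs thus lay between RPL14 and the 3 core genes with the highest ratios.

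Against RPL7 and RPL6, no difference of the paralogs passed the threshold. RPL7L1 was at 0.970 times RPL7, its core relative (95% CI, 0.852 to 1.105, adjusted p = 0.689, Fisher's exact test). In RPKM, RPL7 exceeded RPL7L1 43.1 times in Yorkshire and 44.4 times in Shaziling. RPL22L1 was at 0.939 times RPL7 (95% CI, 0.786 to 1.12) and 1.04 times RPL6 (95% CI, 0.869 to 1.24). RPL7L1 was at 1.07 times RPL6 (95% CI, 0.942 to 1.22). Differences within these intervals were not detectable at this depth. The paralogs themselves, a pair also added after the values were seen, stood at 1.03 (RPL7L1 over RPL22L1, 95% CI, 0.829 to 1.29).

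**Figure D4:**
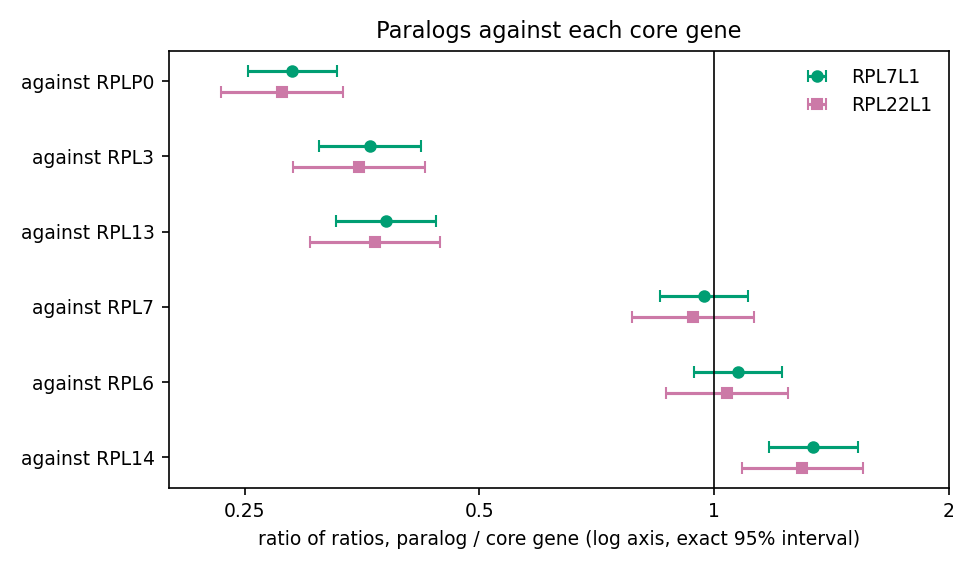
Ratio of each paralog between the libraries divided by that of each core gene, on a log axis with exact 95% intervals on the reads. Circles are RPL7L1 and squares are RPL22L1. Intervals against RPL7 and RPL6 include 1, those against RPLP0, RPL3 and RPL13 reach up to 0.445, and those against RPL14 start at 1.08.

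Elongation factors act at the ribosomal stalk, and their mRNAs are known to be translated under the same control as those of ribosomal proteins. Of 13 elongation and termination factors, 4 were found. EEF1G belongs to the complex that recharges the carrier of aminoacyl-tRNA, and stood at RPKM 78.1 in Yorkshire and 438 in Shaziling, 5.61 times as high (95% CI, 5.42 to 5.80). EEF1B2, of the same complex, stood at RPKM 138 and 211, 1.53 times as high (95% CI, 1.47 to 1.58). EEF2 moves the ribosome along the mRNA, and its ratio was 2.25 (RPKM 229 and 515), while its kinase EEF2K had 2.41. As deposited, EEF1G, EEF2 and EEF2K were called higher in Shaziling, 3 of the 4, against 35.3% of all named genes. With each other scaling 1 of the 4 was called (25%), against 17.2% to 25.1% of all named genes. Of 38 initiation factors, 5 were found and 0 were called as deposited by the exact binomial test with the ratio of 2. Their ratios ran from 0.821 (EIF2B2) to 1.67 (EIF4G1), with EIF2S2 at 1.19 and PABPC4 at 1.64. Without the mitochondrial unigenes in the totals, 1 of the 5 was called higher in Yorkshire (20%), against 14.9% of all named genes.

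Assembly factors build the subunits in the nucleolus and release them to the cytosol. Of 41 factors of the large subunit, 16 were found, with a median log2 ratio of 0.29, against 0.65 over all 4484 named genes. EIF6, which keeps the large subunit from joining the small one too early, had a ratio of 5.14 (95% CI, 4.10 to 6.51), and MRTO4 had 2.49. These 2 were called higher in Shaziling as deposited, 12.5% of the 16, against 35.3% of all named genes. With each other scaling 1 was (6.25%), against 17.2% to 25.1%. SBDS, which helps to release EIF6, stood at RPKM 38.5 and 53.2 (ratio 1.38). PES1 had a ratio of 1.19, DDX18 of 0.884 and TMA16 of 0.733, and none of these 4 was called as deposited. Without the mitochondrial unigenes in the totals, TMA16 was called higher in Yorkshire, 6.25% of the 16, against 14.9% of all named genes.

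Of 57 factors of the small subunit, 24 were found, with a median log2 ratio of 0.02. As deposited, RRP8 (3.87), TSR3 (3.34), TSR2 (2.37), BYSL (2.31) and PNO1 (2.27) were called higher in Shaziling. They were 20.8% of the 24, against 35.3% of all named genes. Of them, TSR2, BYSL and PNO1 are named after their values were seen. DIMT1, an rRNA methyltransferase, was called higher in Yorkshire (0.474). NAT10 was at 0.569, UTP11 at 0.699 and UTP3 at 0.737, and these were not called as deposited. With each of the 5 other scalings NAT10 was called higher in Yorkshire, and TSR2, BYSL and PNO1 lost their calls. UTP11 and UTP3 were called higher in Yorkshire only with totals that omit the mitochondrial unigenes. Without the mitochondrial unigenes in the totals, 2 of the 24 were called higher in Shaziling and 9 in Yorkshire. The shares over the 4484 named genes were then 17.2% and 14.9%.

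Among 15 nucleolar core proteins, 7 were found and 5 were called higher in Shaziling, against 35.3% of all named genes. DKC1, the enzyme that converts uridines of rRNA to pseudouridine, had a ratio of 3.02 (95% CI, 2.59 to 3.55), and its partners NHP2 and NOP10 had 2.55 and 2.001. FBL, the methylase of rRNA riboses (2.52), and NPM3 (2.01) were called too, and are named after their values were seen. NOP56 (1.32) and NOLC1 (0.941) were not called. With 4 of the other scalings 1 of the 7 was called (14.3%), against 23.1% to 25.1% of all named genes. Without the mitochondrial unigenes 0 were, against 17.2%.

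The mitochondrial ribosome is a separate particle with its own proteins. Of 78 genes, 37 were found, with a median RPKM of 9.25 in Yorkshire and 14.1 in Shaziling. Their median log2 ratio was 0.50, against 1.55 over the 6 core cytosolic genes and 0.65 over all named genes. The core median falls in a gap, with RPL14, RPL6 and RPL7 at 0.40 to 0.87 and RPL13, RPL3 and RPLP0 at 2.22 to 2.62. Of the 37, 10 were called higher in Shaziling and 1 higher in Yorkshire, where the shares over all named genes were 35.3% and 3.17%. In the large subunit, MRPL14 had a ratio of 10.7 (95% CI, 7.99 to 14.7) and MRPL36 of 3.90, whereas MRPL17 (1.77), MRPL18 (1.61), MRPL35 (0.947) and MRPL32 (0.584) were not called. In the small subunit, MRPS34 (7.08) and MRPS26 (3.14) were called higher in Shaziling and MRPS9 (0.447) higher in Yorkshire, and MRPS18A (1.42) and MRPS33 (0.589) were not called. Genes of 1 particle thus had unlike ratios here as well. Without the mitochondrial unigenes in the totals, 2 of 24 large and 1 of 13 small subunit genes were called higher in Shaziling, and 1 and 4 higher in Yorkshire. The shares over all named genes under these totals were 17.2% and 14.9%. Toward Shaziling both subunits were below this share (8.33% of the large and 7.69% of the small). Toward Yorkshire the large subunit was below it (4.17%) and the small subunit above it (30.8%).

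**Figure D5:**
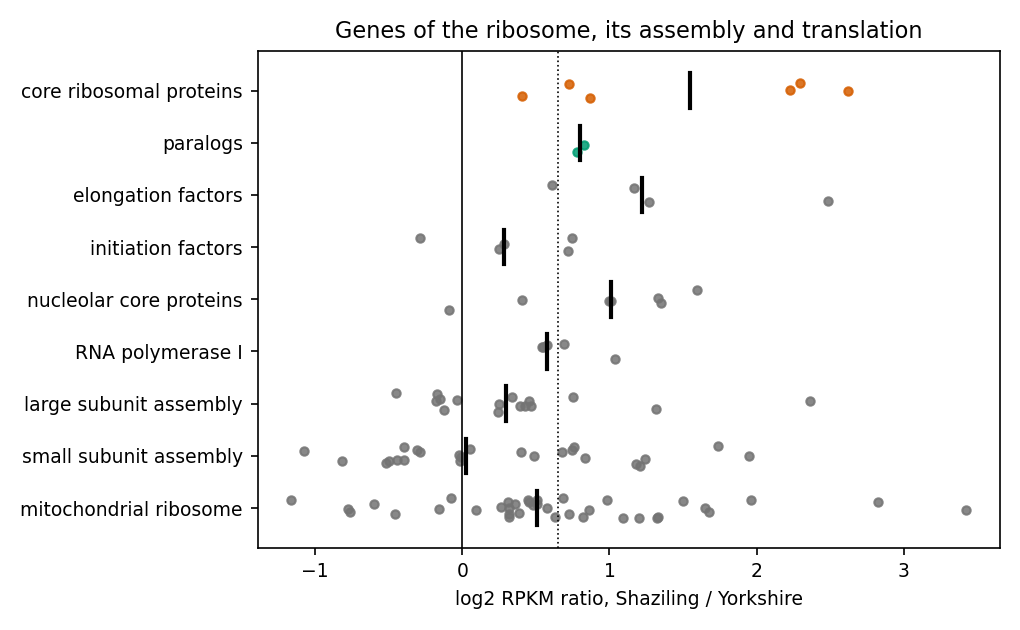
Log2 RPKM ratio (Shaziling over Yorkshire) of each named gene of the lists, 1 point a gene (vertical scatter for display only), with the median of each list as a bar. The solid line is a ratio of 1 and the dotted line the median log2 ratio of all 4484 named genes (0.65). The 6 core ribosomal genes stand at 0.40 to 0.87 or at 2.22 to 2.62, with none between.

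LM also holds cells other than muscle fibres, and their markers differed between the libraries. In such samples, fewer cells of a type and less RNA per cell cannot be told apart. As deposited, 35.3% of all named genes were called higher in Shaziling and 3.17% higher in Yorkshire. With the other scalings these shares were 17.2% to 25.1% and 6.94% to 14.9%. All 4 muscle fibre markers were called higher in Shaziling as deposited, with MYLPF at 5.75, MYBPC2 at 3.31, ATP2A1 at 2.50 and DES at 2.49 times Yorkshire, and 2 of them with each other scaling. Of 11 blood markers, 5 were found and called (3 with each other scaling), and their summed RPKM was 54.0 in Yorkshire and 289 in Shaziling. HBB and ALAS2, of red blood cells and their precursors, had ratios of 11.2 and 10.6, and CD74 had 2.13. HBM and S100A9, named after their values were seen, had 0 reads in Yorkshire and only 7 and 21 in Shaziling. Of 8 endothelial markers 4 were found, and VWF (20.2) and ESAM (3.85) were called while PECAM1 (1.36) and KDR (1.53) were not. The 4 fibroblast markers were not called as deposited, with LUM at 0.505, DCN at 0.813, COL3A1 at 1.04 and COL1A2 at 1.24. LUM was called higher in Yorkshire with each of the 5 other scalings, and DCN also without the mitochondrial unigenes in the totals. Among satellite cell genes, MYF5 (3.65) and MYOD1 (2.23) were called, and among fat cell genes CIDEC (4.198) was called and FABP4 (1.86) was not. Reads were few for MYF5 (24 in Yorkshire, 73 in Shaziling) and CIDEC (8 and 28). With each other scaling MYF5 was called and MYOD1 was not, and CIDEC lost its call without the mitochondrial unigenes. What part these cell types had in the ratios of the ribosomal protein genes was not tested.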

How the data were processed

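RNA-seq of LM was deposited as 1 table of 65535 unigenes with 1 column of reads and 1 of RPKM per breed. The paper reports a larger assembly, so the table lists only a part of it. Reads of the listed unigenes made up 87% of the Yorkshire total behind RPKM and 72.7% of the Shaziling total. Shares over all unigenes, genes not found and scalings computed from these unigenes therefore refer to the listed part. The authors assembled the trimmed reads de novo with CLC Genomics Workbench, matched unigenes to proteins by BlastX and deposited read counts (whole numbers, without normalization) and RPKM values computed with Qualimap from the unigene length and the library total. The program that counted reads is not given in the sources used here. The submitters' processing notes name CASAVA 1.8, TopHat2 2.0.6 and a mouse genome build, which play no part in this description. The deposited unigene length is in bp. All RPKM values were recomputed from the counts and lengths with 1 total per library.

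Genes were named through RefSeq protein accessions of Sscrofa11.1, which gave 5698 unigenes a symbol, and the unigene with the highest mean RPKM represented a gene. No coordinates were used. With 1 library per breed, edgeR's quasi-likelihood test could not be fitted, so the reads of each unigene were set against the totals of the libraries by a binomial exact test (two-sided, as 2 times the smaller tail). P-values were adjusted by the Benjamini-Hochberg method over all unigenes, and calls needed an RPKM ratio of 2 and an adjusted p of 0.05 or less. The test was also run on simulated reads with known changes, which varied by counting error only. That run cannot bear on differences between pigs or on the shift in mitochondrial reads. Pairs of genes were compared with Fisher's exact test, adjusted within each family of pairs. The members and gene lists were chosen with earlier results of these data known, so the counts are descriptions. Genes named from the lists were all members and, of each list outside the cytosolic ribosomal proteins, the 2 with the highest mean RPKM and the 2 with the largest and the 2 with the smallest ratio among those with 20 or more reads. Genes named beyond this rule are marked as named after their values were seen. Likeness of pattern was not measured, because 2 libraries give 1 ratio per gene. Planned descriptions of start-site sequences and protein identity were not analysed here, and results for other core ribosomal proteins are not reported here. Alternatives were 5 other scalings, other fold, false discovery, length and RPKM limits, and other choices of unigene. Tests ran in scipy 1.17.1 under Python 3.11.15, with pandas 2.3.3 and numpy 2.4.6, and TMM factors came from edgeR 4.0.16 in R 4.3.3.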

Additional observations from a re-analysis of the deposited data

How the results depend on the processing

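Each scaling or threshold was changed alone. RPLP0, RPL3 and RPL13, and no other of the 8 genes, were called higher in Shaziling under each of them except a fold of 1.5. With that fold 7 were called (RPL14 was the exception), and 0 were called higher in Yorkshire under each. Other folds were applied to the deposited ratios only. With totals that omit the mitochondrial unigenes, RPL3 (2.98) and RPL13 (2.84) were under a ratio of 3, and RPLP0 (3.74) was above it. The median log2 ratio of the 6 core genes was 1.55 as deposited, 1.12 after rescaling to the same RPKM sum, 1.19 with a median log2 ratio of 0, 1.11 with TMM, 1.12 with median-of-ratios size factors and 0.83 with totals that leave out the mitochondrial unigenes. RPL14 changed direction with the same RPKM sum (0.981), TMM (0.976), size factors (0.981) and totals without the mitochondrial unigenes (0.804), since each of these multiplies all ratios by 1 factor. Of the 64 values of single genes under other scalings or thresholds, 56 kept their direction and side of the threshold. A further 4 passed it with a fold of 1.5, and 4 are those of RPL14 below 1. Not all of the 56 were free to move. Under other fold and false discovery limits the ratio is the same by construction, so only the call could differ. At a false discovery rate of 0.01 the call could not differ either, since every adjusted p was at most 8.26e-09 (exact test). The 40 values outside these 64 could not move and say nothing about stability, because each gene had 1 unigene (longest or summed), longer than 300 bp and above RPKM 10 in its higher library. For the pairs, only the threshold of 0.01 could change the count, and 8 of 12 passed it. No paired analysis was possible because each breed has 1 library, and for the same reason no replicate could be left out. Depth limits the paralogs most (218 to 606 reads per library).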

Other observations

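Of 20 regulators that act on the translation of ribosomal protein mRNAs, 6 were found. EIF4EBP1, which holds back the cap-binding protein, stood at RPKM 24.8 in Yorkshire and 85.6 in Shaziling, 3.45 times as high (95% CI, 3.19 to 3.74). TSC2, an inhibitor of the mTOR pathway, had a ratio of 3.07 (2.69 to 3.51). MTOR itself was at 1.24 and the kinase RPS6KB1 at 0.809. EIF4EBP1, TSC2 and RPS6KB2 (2.23, named after its value was seen) were called higher in Shaziling as deposited. They were 3 of 6, against 35.3% of all named genes. Without the mitochondrial unigenes in the totals, 1 of the 6 was called higher in Shaziling and 1 in Yorkshire. The shares over all named genes were then 17.2% and 14.9%. Of the RNA polymerase I transcription genes, which make rRNA, 5 of 15 were found with ratios from 1.45 (POLR1A) to 2.05 (POLR1C), with POLR1D at 1.46 and TAF1A at 1.61. As deposited only POLR1C was called (20% of the 5, against 35.3% of all named genes). With each of the 5 other scalings 0 were, against 17.2% to 25.1% called higher in Shaziling.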
